A study of Homo sapiens with 18 samples.

Results

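Heme biosynthesis was followed through 9 genes, the enzymes ALAS1, ALAS2, ALAD, UROS, UROD, CPOX, PPOX and FECH and the mitochondrial carrier SLC25A38. The members were the probe sets that the array's probe table assigned to exactly 1 of these genes. They numbered 19 of 54675 probe sets and stood for 9 of the 19775 genes that at least 1 probe set names alone. Each gene was represented by its main probe set, the one with the highest mean over all 18 arrays. ALAS1, CPOX and SLC25A38 had 1 probe set each. All 9 main probe sets lay above the median probe set level of 4.61.

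The arrays profiled K562 cells, a human chronic myeloid leukemia line with erythroid features. The cells carried a retroviral vector for CALRwt (LCALRwtIDN), CALRdel52 (LCALRdel52IDN) or CALRins5 (LCALRins5IDN), were purified by the NGFR marker of the vector and were either untreated or exposed to Melittin (MEL, a toxic peptide of bee venom used here to induce oxidative stress) at 5 μg/mL for 24 h, with 3 arrays in each of the 6 groups. The labels describe 3 independent experiments for the untreated cells and do not say whether equally numbered arrays share one. CALR was overexpressed from a vector in a single cell line that also keeps its own CALR, and the labels differ on whether untreated cells were cultured for the same time as MEL cells or harvested right after sorting, so time in culture and MEL cannot be told apart.

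The deposited values are log2 intensities made with RMA, which corrects background, equalises arrays and summarises the probes of a set, so that a difference of 1 is a doubling and levels of separate genes cannot be compared. Array medians were 4.556 to 4.603 on untreated arrays and 4.602 to 4.660 on MEL arrays. GAPDH read at its 3' end exceeded GAPDH read at its 5' end, a gap that widens as RNA is degraded, by 0.309 to 0.411 on untreated arrays and by 0.421 to 1.33 on MEL arrays. These ranges did not overlap, so each MEL result below moved together with this sign of RNA quality. CALRins5 MEL replicate 1 read 1.33, and the next MEL array read 0.696. A fit with this gap as a covariate rests on the spread within groups and cannot separate RNA quality from MEL. Values with the covariate are given for the main probe sets of members and named genes whose call it ended. CALRdel52 MEL replicate 3 and CALRins5 MEL replicate 1 had the lowest median correlations with the other arrays (0.9887 and 0.9903). CALRwt MEL replicate 3 was close to them (0.9908). Below, the arrays that stood apart are CALRdel52 MEL replicate 3 and CALRins5 MEL replicate 1. Of 10 markers of K562 cells 7 were measured, and all 7 lay above the median level. With MEL 5 of these 7 were called, beside 36.7% of all genes. HBZ, LMO2 and GATA1 were lower by 0.48, 0.42 and 0.20. TFRC and HBE1 were higher by 0.41 and 0.22, with 2 of the 5 TFRC probe sets called the opposite way. Of the 2 HBE1 probe sets only 1 was higher. EPCAM and KRT8, which mark epithelial cells, also lay above the median and fell with MEL by 0.26 and 0.22, and the part of these transcripts in the results was not tested. The summed level of this pair on the log2 scale ran from 11.47 to 11.76 on untreated arrays and from 11.06 to 11.54 on MEL arrays. Of 3 monocyte markers LYZ alone was called, higher by 0.25, with CD14 and CSF1R below the median level. LYZ had a mean of 10.11, and of its 2 probe sets only 1 was higher and called. It was also lower in untreated CALRins5 than CALRdel52 cells (-0.53, limma adjusted p = 0.0465). Above the median lay 2 of 3 T cell markers (CD3D at 8.87), 1 of 2 B cell markers and 2 of 4 megakaryocyte markers. By their main probe sets none of these was called with MEL, though 1 of 4 ITGA2B probe sets was.

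Heme is built from glycine and succinyl-CoA. ALAS joins them in mitochondria in the step that sets the rate, with ALAS1 as the form of all tissues and ALAS2 as the form of red cell precursors, and SLC25A38 brings the glycine in. ALAD, UROS and UROD then work in the cytosol, where porphobilinogen is made, the tetrapyrrole ring is closed and its side chains are trimmed. CPOX, PPOX and FECH finish the molecule at the mitochondrion, and FECH inserts the iron. Red cell precursors make heme for hemoglobin, and K562 cells express embryonic and fetal globins.

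The sequence before the start site is shown for ALAS2, CPOX and SLC25A38, the members whose main probe sets changed with MEL in at least 2 of the 3 vectors. Other probe sets of UROS, UROD and PPOX were also called in at least 2 vectors. Capitals mark matches to AGATAA (read as TTATCT on the other strand), a form of the GATA motif bound by the erythroid factor GATA1, and to TGACNNNGC (GCNNNGTCA on the other strand), the core of the antioxidant response element. The stretches are the 250 bases before the start in RefSeq, assembly GRCh38.p14, 5′ to 3′ on the gene's strand, at chrX:55030978-55031227 (minus strand) for ALAS2, chr3:98593612-98593861 (minus strand) for CPOX and chr3:39383120-39383369 (plus strand) for SLC25A38.
ALAS2: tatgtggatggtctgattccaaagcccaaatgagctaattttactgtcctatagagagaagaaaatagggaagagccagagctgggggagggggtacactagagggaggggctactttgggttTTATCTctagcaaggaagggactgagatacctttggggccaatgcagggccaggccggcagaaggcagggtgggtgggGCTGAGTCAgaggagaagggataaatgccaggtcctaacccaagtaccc
CPOX: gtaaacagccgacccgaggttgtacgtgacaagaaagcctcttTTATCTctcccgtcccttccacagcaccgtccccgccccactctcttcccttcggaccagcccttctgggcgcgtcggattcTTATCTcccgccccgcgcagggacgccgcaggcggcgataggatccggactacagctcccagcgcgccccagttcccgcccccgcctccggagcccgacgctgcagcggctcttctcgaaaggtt
SLC25A38: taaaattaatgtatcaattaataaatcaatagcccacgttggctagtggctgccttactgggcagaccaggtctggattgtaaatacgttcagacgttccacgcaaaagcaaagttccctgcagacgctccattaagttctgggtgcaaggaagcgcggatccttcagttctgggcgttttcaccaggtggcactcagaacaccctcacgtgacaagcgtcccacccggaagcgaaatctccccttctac

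ALAS2 held 1 GATA match 127 bases before its start and 1 antioxidant response match 49 bases before it. CPOX held GATA matches at 207 and 125 bases before the start, and SLC25A38 held no match to these motifs. Of the other members, the second start of PPOX held a GATA match 63 bases before it, FECH held an antioxidant response match 38 bases before its start, and ALAS1 held overlapping matches to GCATGCGC (GCGCATGC on the other strand), the motif of the respiratory regulator NRF1, at 22 and 24 bases after its start. RefSeq promoters were found for 8 of the 9 members, 10 promoters in all. Among 35116 promoters of the same length (250 bases before to 50 after a start), 10.3% held the GATA letters, 13.3% the antioxidant response letters and 3.05% the NRF1 letters, so each match is a description of the letters and not a bound site. The ALAS2 mRNA also carries near its 5′ end the CAGTGC loop of an iron response element, the hairpin through which iron regulatory proteins hold back translation. It begins at base 21 after the start and is shown in capitals at chrX:55030944-55030966 (minus strand).
ALAS2 iron response element: gttcgtcctCAGTGCagggcaac

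With MEL over the 3 vectors, 4 of the 9 members passed the test. ALAS2, the erythroid first enzyme, rose by 0.43 on the log2 scale, whereas SLC25A38 fell by 0.33, CPOX fell by 0.29 and UROD fell by 0.15. ALAS1, ALAD, UROS, PPOX and FECH did not pass. The members called were 44.4% of the 9, beside a background of 36.7% of 19775 genes, of which 18.6% were higher and 18.1% lower. The median difference was -0.05 for the members and 0.04 for all genes. When quantile normalization was repeated over the arrays, 5 members were called, 3 higher and 2 lower, in place of 1 higher and 3 lower, and over all genes 3886 were higher and 2958 lower (56.8% of calls higher). With arrays centred on their medians 1 was higher and 4 were lower, and over all genes the share of calls that were higher went from 50.6% to 35.4%. In these bulk samples, less RNA per cell and fewer cells that express a gene cannot be told apart.

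In CALRwt cells, the log2 values of ALAS2 were 8.08, 8.0 and 7.99 untreated and 8.59, 8.47 and 8.45 after MEL. In CALRdel52 cells they were 7.98, 8.09 and 8.06 untreated and 8.56, 8.56 and 8.65 with MEL. CALRins5 cells gave 7.70, 7.64 and 7.78 untreated and 8.06, 7.86 and 7.98 with MEL. Within each vector all 3 MEL arrays lay above all 3 untreated arrays, but the MEL arrays of CALRins5 cells overlapped the untreated arrays of the other vectors. The share of all genes with such a gap between 3 and 3 arrays was not counted, so these gaps, here and below, are descriptions only. ALAS2 was 1.34-fold higher with MEL (log2 difference 0.43, SE 0.05, 95% interval 0.33 to 0.52, limma adjusted p = 1.98e-06). With the GAPDH difference as a covariate the log2 difference was 0.37 (limma adjusted p = 0.000423), in a fit that cannot separate RNA quality from MEL. A second, dim ALAS2 probe set with a mean of 3.55, below the median level, differed by 0.12 and did not pass (limma adjusted p = 0.194).

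SLC25A38, the carrier that supplies glycine to ALAS, was 8.63, 8.75 and 8.63 in untreated CALRwt cells and 8.44, 8.41 and 8.22 after MEL. CALRdel52 cells read 8.55, 8.55 and 8.52 untreated and 8.27, 8.23 and 8.06 with MEL. The values in CALRins5 cells were 8.63, 8.62 and 8.71 untreated and 8.31, 8.27 and 8.37 with MEL. All 9 MEL arrays lay below all 9 untreated arrays. The fall was 1.26-fold (log2 difference -0.33, SE 0.05, 95% interval -0.44 to -0.23, limma adjusted p = 3.95e-05), and it was close in size in the 3 vectors.

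CPOX, which converts coproporphyrinogen to protoporphyrinogen, was 8.48, 8.31 and 8.48 in untreated CALRwt cells and 8.21, 7.97 and 8.05 with MEL. CALRdel52 cells gave 8.48, 8.56 and 8.35 untreated and 8.05, 8.13 and 8.11 with MEL. In CALRins5 cells the values were 8.31, 8.42 and 8.53 untreated and 8.27, 8.29 and 8.23 with MEL. Here too all 9 MEL arrays lay below all 9 untreated arrays, by a narrow margin in CALRins5 cells. CPOX fell 1.22-fold (log2 difference -0.29, SE 0.05, 95% interval -0.40 to -0.18, limma adjusted p = 0.000285). CPOX and SLC25A38 were 22.2% of the members, and 8.88% of all genes had MEL and untreated arrays that did not overlap, 524 of them above and 1232 below.

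UROD, which removes carboxyl groups from uroporphyrinogen, was 11.86, 11.77 and 11.83 in untreated CALRwt cells and 11.70, 11.56 and 11.45 after MEL. CALRdel52 cells read 11.87, 11.90 and 11.84 untreated and 11.76, 11.80 and 11.72 with MEL. In CALRins5 cells the arrays read 11.80, 11.85 and 11.88 untreated and 11.69, 11.78 and 11.79 with MEL. Within each vector the MEL arrays lay below the untreated arrays, while over all vectors the ranges overlapped. The fall was 1.11-fold (log2 difference -0.15, SE 0.05, limma adjusted p = 0.0162), and it did not pass with the GAPDH difference as a covariate (limma adjusted p = 0.217) with quantile normalization repeated (log2 difference -0.09, limma adjusted p = 0.0986) or when all arrays of any 1 replicate number were left out (limma adjusted p = 0.0684, 0.106 and 0.152 without numbers 1, 2 and 3).

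**Figure D1:**
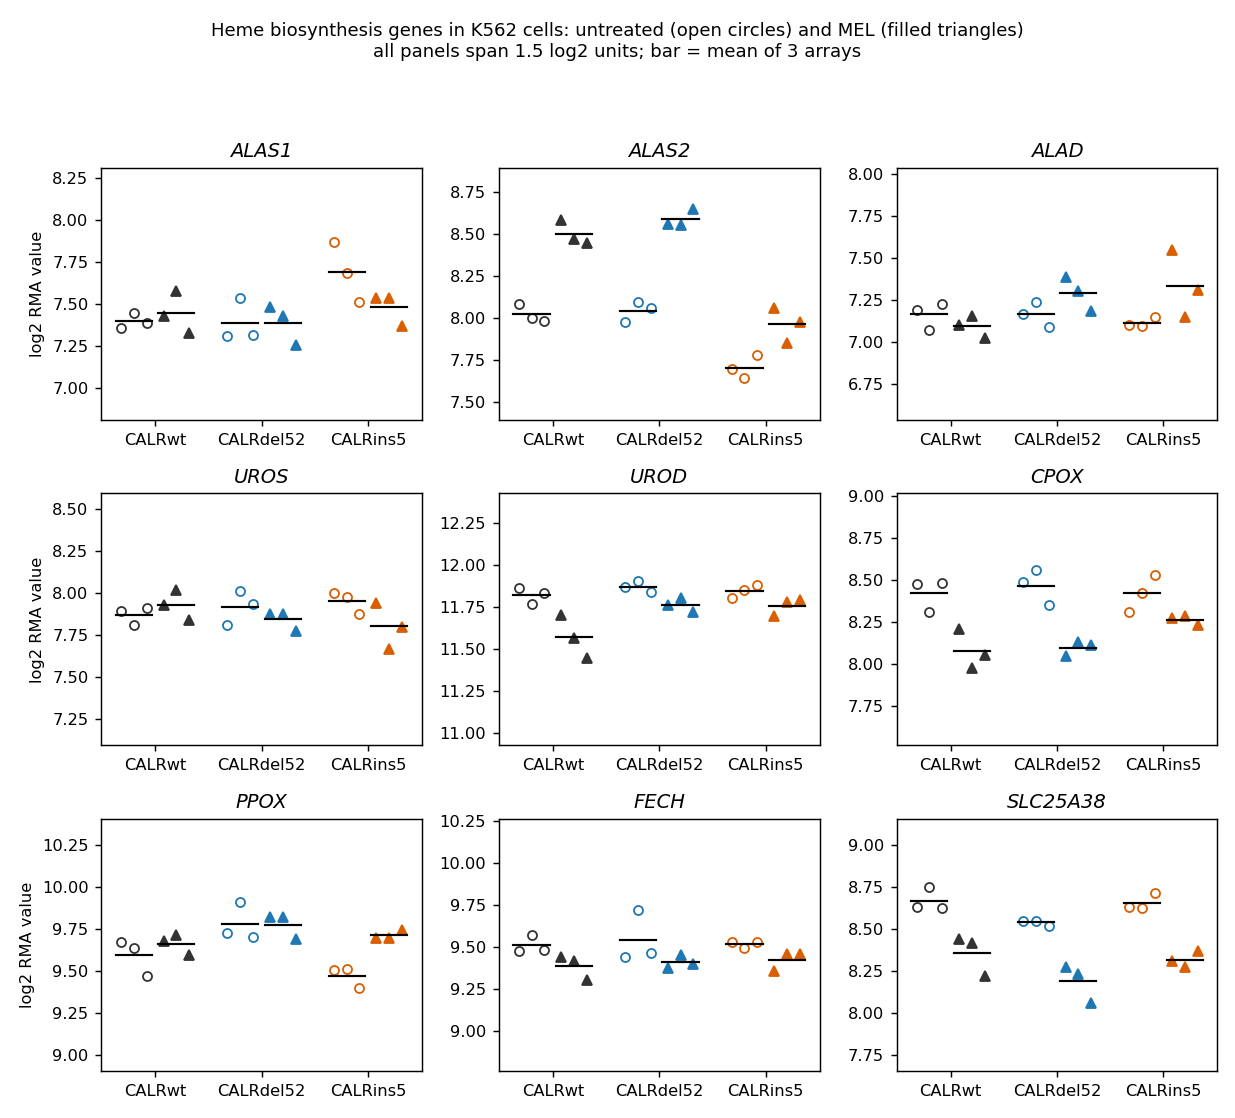
Log2 RMA values of the main probe set of each member, 1 point per array, by vector on the horizontal axis, with open circles for untreated cells, filled triangles for MEL and a bar at the mean of 3 arrays; every panel spans the same number of log2 units. ALAS2 is higher with MEL in each vector and lower in CALRins5 cells throughout, and the MEL points of CPOX and SLC25A38 all lie below the untreated points.

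The remaining members moved less than 0.15 by their main probe sets. FECH, the ferrochelatase, ran from 9.44 to 9.73 on untreated and from 9.31 to 9.46 on MEL arrays, a difference of -0.12 that did not pass (SE 0.05, limma adjusted p = 0.0711). It passed without CALRdel52 untreated replicate 1 (log2 difference -0.14, limma adjusted p = 0.0477) and in 5 of 11 other settings, among them arrays centred on their medians (-0.17, limma adjusted p = 0.023) and the trend and robust options (limma adjusted p = 0.0344). PPOX, the enzyme before FECH, was 9.40 to 9.91 untreated and 9.59 to 9.82 with MEL, with a difference of 0.10 (SE 0.05, limma adjusted p = 0.117). PPOX passed with quantile normalization repeated (0.18, limma adjusted p = 0.00671) and with the mean of its probe sets (0.27, limma adjusted p = 0.00032). It also passed without probe sets with _x_ or _s_ in their names, where another probe set stands in (0.47, limma adjusted p = 0.000124). ALAD, which makes porphobilinogen, was 7.07 to 7.24 untreated and 7.02 to 7.55 with MEL, with a difference of 0.09 (SE 0.06, limma adjusted p = 0.219). ALAD passed with quantile normalization repeated (0.17, limma adjusted p = 0.0241). Over all vectors the untreated and MEL arrays of these 3 enzymes overlapped, though those of FECH lay apart within CALRwt and CALRins5 cells and those of PPOX within CALRins5 cells. UROS, which closes the ring, and ALAS1, the form of all tissues, each differed by -0.05 (limma adjusted p = 0.435 for UROS and 0.530 for ALAS1). Their 95% intervals were -0.16 to 0.05 and -0.18 to 0.07, and both differences lay above 0 when quantile normalization was repeated. UROS passed without probe sets with _x_ or _s_ in their names (-0.46, limma adjusted p = 2.90e-05) and with the mean of its probe sets (-0.34, limma adjusted p = 1.48e-06).

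Other probe sets of the same genes gave another picture for several members. Of the 19 member probe sets 12 passed with MEL, 4 higher and 8 lower, beside 33.7% of all probe sets. For UROS, both other probe sets fell, by 0.46 (limma adjusted p = 3.06e-05) and by 0.49 (limma adjusted p = 2.38e-05), and in each of them all 9 MEL arrays lay below all 9 untreated arrays. The brighter of this pair was 7.49 to 7.57 in untreated CALRwt cells and 6.70 to 7.0 with MEL. Both other UROD probe sets fell more than the main one, by 0.28 (limma adjusted p = 0.0022) and by 0.65 (limma adjusted p = 2.90e-05). The second of these was 7.22, 7.09 and 7.11 in untreated CALRwt cells and 6.38, 6.35 and 6.34 with MEL, with no overlap.

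Both other PPOX probe sets rose, by 0.47 (limma adjusted p = 0.000139) and by 0.24 (limma adjusted p = 0.0147), the latter at a level of 3.42 below the median. In CALRwt cells the first of them was 4.92, 5.12 and 4.87 untreated and 5.58, 5.87 and 5.36 with MEL, and its MEL arrays lay above its untreated arrays in each vector. For FECH, a second probe set differed by -0.12 like the main one (limma adjusted p = 0.113), while a dim one at 4.62, near the median, rose by 0.32 (limma adjusted p = 0.00471). The second ALAD probe set fell by 0.23 (limma adjusted p = 0.019), opposite in sign to the main one. ALAD and FECH thus had probe sets of opposite sign, and the part of each transcript that a probe set reads was not examined.

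**Figure D2:**
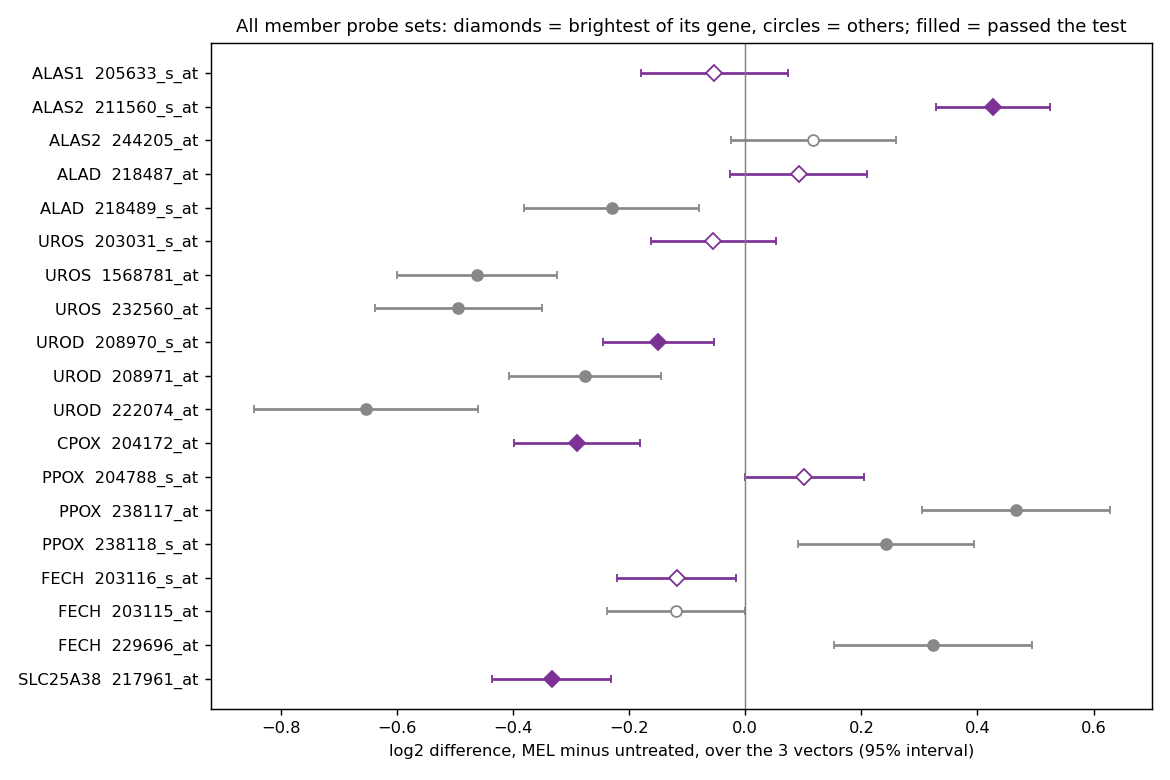
Log2 difference with MEL over the 3 vectors for all 19 member probe sets, with 95% intervals; diamonds are the main probe sets, circles the others, and filled symbols passed the test. Probe sets of UROS, UROD and CPOX and of SLC25A38 lie at or below 0 in every case, those of PPOX and ALAS2 above it, and those of ALAD and FECH on both sides.

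Taken by vector and by main probe sets, 4 members passed with MEL in CALRwt cells (background 18.1%), 3 in CALRdel52 cells (background 13.3%) and 2 in CALRins5 cells (background 11.6%). ALAS2 rose by 0.48 in CALRwt cells (95% interval 0.31 to 0.65, limma adjusted p = 0.000677) and by 0.54 in CALRdel52 cells (95% interval 0.37 to 0.71, limma adjusted p = 0.00048). In CALRins5 cells it rose by 0.26 (95% interval 0.09 to 0.43, limma adjusted p = 0.04999), and this call was lost without any single array other than CALRwt MEL replicate 1, CALRdel52 MEL replicate 3 or CALRins5 MEL replicate 2, and with the GAPDH difference as a covariate (0.18, limma adjusted p = 0.3998). SLC25A38 fell by 0.31, 0.35 and 0.34 in CALRwt, CALRdel52 and CALRins5 cells (limma adjusted p = 0.0171, 0.0116 and 0.0144). By main probe sets it was the only member besides ALAS2 to pass in all 3 vectors. Another UROD probe set (limma adjusted p = 0.00265, 0.0414 and 0.0128 in the same order) and another UROS probe set (limma adjusted p = 0.0124, 0.0097 and 0.00992) also fell and passed in all 3.

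CPOX fell by 0.34 in CALRwt cells (limma adjusted p = 0.0137) and by 0.37 in CALRdel52 cells (limma adjusted p = 0.0126), and differed by -0.16 in CALRins5 cells without passing (limma adjusted p = 0.317). UROD fell by 0.25 in CALRwt cells (limma adjusted p = 0.0376) and differed by -0.11 and -0.09 in CALRdel52 and CALRins5 cells. PPOX differed by 0.24 in CALRins5 cells (95% interval 0.06 to 0.42, limma adjusted p = 0.0804), with all 3 MEL arrays (9.70, 9.70 and 9.75) above the untreated arrays (9.51, 9.51 and 9.40). The calls of main probe sets within 1 vector rested on few arrays. UROD was lost in CALRwt cells without any 1 of their untreated arrays or without MEL replicate 2 or 3, CPOX without CALRwt untreated replicate 1 or 3 or MEL replicate 2, and SLC25A38 without CALRwt untreated replicate 2 or MEL replicate 3, and in CALRdel52 cells CPOX was lost without untreated replicate 2 and SLC25A38 without MEL replicate 3. SLC25A38 was lost in CALRins5 cells without untreated replicate 3 or MEL replicate 1. Without all arrays of any 1 replicate number, no call of a main probe set within a vector but that of ALAS2 in CALRwt and CALRdel52 cells was kept. The GAPDH difference as a covariate also ended the calls of SLC25A38 in CALRwt and CALRins5 cells (-0.30 and -0.32, limma adjusted p = 0.0504 and 0.113). In CALRwt cells it ended that of UROD (-0.22, limma adjusted p = 0.120).

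**Figure D3:**
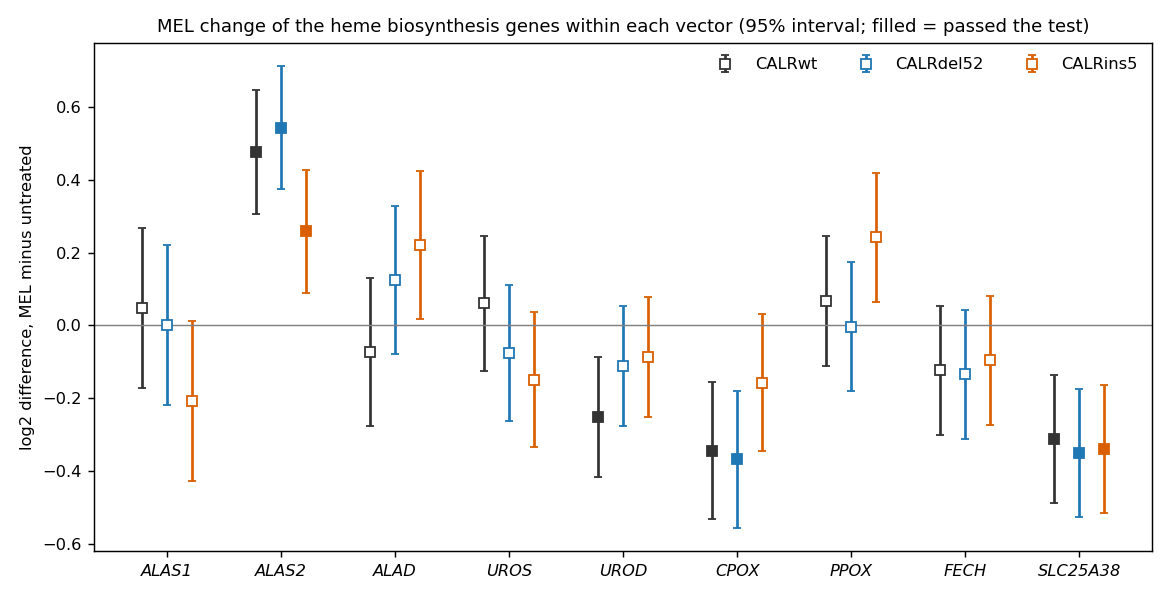
Log2 difference with MEL for the main probe set of each member within CALRwt, CALRdel52 and CALRins5 cells, with 95% intervals from limma. Filled squares passed the test. The intervals of ALAS2 lie above 0 and those of SLC25A38 below 0 in all 3 vectors, and the intervals of each gene overlap between vectors.

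Whether the response to MEL differed between vectors was tested as the difference of the differences. No member passed for mutated against CALRwt cells, for CALRdel52 against CALRwt cells or for CALRins5 against CALRwt cells, and no gene did (backgrounds 0%, 0% and 0%). At an unadjusted p under 0.05 limma counted 2624, 2926 and 2831 probe sets in these comparisons, and 0, 0 and 1 member. The response of ALAS2 in CALRins5 cells was 0.22 below that in CALRwt cells by its means, with a 95% interval from -0.46 to 0.02 (limma adjusted p = 0.955). The 1 member under 0.05 was ALAD, with a difference in response of 0.29 (95% interval 0.01 to 0.58, limma adjusted p = 0.955).

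Between vectors under MEL, ALAS2 was the member that passed. It was 1.45-fold lower in CALRins5 than in CALRwt cells (log2 difference -0.54, SE 0.08, 95% interval -0.71 to -0.37, limma adjusted p = 0.0191), where 0.0759% of all genes were called. Against CALRdel52 cells it was 1.54-fold lower (log2 difference -0.62, SE 0.08, 95% interval -0.79 to -0.45, limma adjusted p = 0.0034), again with 0.0759% of all genes called. The CALRins5 arrays (8.06, 7.86 and 7.98) lay below all arrays of both other vectors with MEL (8.45 to 8.65). Leaving out CALRwt MEL replicate 1 or 2 or CALRins5 MEL replicate 2 or 3 ended the call against CALRwt cells (limma adjusted p = 0.102, 0.0921, 0.155 and 0.101), whereas the call against CALRdel52 cells held without each single array. Neither held without all arrays of any 1 replicate number. Both were lost when only the MEL arrays, of all vectors, were in the model (limma adjusted p = 0.427 and 0.204), with the differences unchanged. The dim ALAS2 probe set differed by -0.28 and -0.02 in these comparisons and did not pass.

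The other members did not pass between vectors under MEL. For mutated against CALRwt cells 0 of 9 passed (background 0.086%), and for CALRdel52 against CALRwt cells 0 of 9 passed (background 0.0506%). At an unadjusted p under 0.05 limma counted 3 and 1 members in them by their main probe sets, beside 4141 and 4593 of all 54675 probe sets. For mutated against CALRwt cells the lowest difference was that of ALAS2, at -0.22 (limma adjusted p = 0.472). With MEL, ALAD was 7.29 ± 0.10 in CALRdel52 and 7.33 ± 0.20 in CALRins5 cells (SD, n = 3) beside 7.09 ± 0.06 in CALRwt cells, a difference of 0.22 for mutated against CALRwt cells (95% interval 0.04 to 0.40, limma adjusted p = 0.561). UROD was 11.76 ± 0.04 and 11.75 ± 0.05 beside 11.57 ± 0.13, a difference of 0.19 (95% interval 0.05 to 0.33, limma adjusted p = 0.536). The intervals of these enzymes leave 0 outside, but the adjusted values do not pass.

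Among untreated cells no member passed in any comparison. The backgrounds were 0% for mutated against CALRwt, 0.0556% for CALRdel52 against CALRwt, 0.0101% for CALRins5 against CALRwt and 1.13% for CALRins5 against CALRdel52 cells. At an unadjusted p under 0.05 limma counted 0, 0, 2 and 3 members in the same order, beside 3189, 5017, 3334 and 6579 of 54675 probe sets. ALAS2 was 7.71 ± 0.07 in untreated CALRins5 cells (SD, n = 3), beside 8.02 ± 0.05 in CALRwt and 8.04 ± 0.06 in CALRdel52 cells. All 3 CALRins5 arrays lay below the others, a gap whose share over all genes was not counted. The differences were -0.32 (95% interval -0.49 to -0.15, limma adjusted p = 0.528) and -0.34 (95% interval -0.51 to -0.17, limma adjusted p = 0.0801). ALAS1 lay the other way in these cells, at 7.87, 7.68 and 7.51 beside 7.35, 7.45 and 7.39 in CALRwt cells, a difference of 0.29 (95% interval 0.06 to 0.52, limma adjusted p = 0.754). Against CALRdel52 cells, PPOX differed by -0.31 (95% interval -0.50 to -0.11, limma adjusted p = 0.174).

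In the order of group means, ALAS2 was highest with MEL in CALRdel52 (8.59 ± 0.05) and CALRwt cells (8.50 ± 0.07), whose arrays overlapped. Untreated CALRdel52 cells (8.04 ± 0.06), untreated CALRwt cells (8.02 ± 0.05) and CALRins5 cells with MEL (7.97 ± 0.10) came next. These 3 groups overlapped each other and lay below all arrays of the first pair. Untreated CALRins5 cells (7.71 ± 0.07) were lowest and did not overlap. For ALAS1, ALAD, UROS, UROD and PPOX every neighbour in the order overlapped the next. The genes with the pattern of group means most like that of ALAS2 among 12429 compared were CLEC2B, CYTOR and BTN3A1, with root mean square differences of 0.0716, 0.0817 and 0.086 log2 units over the 6 groups, beside 0.309 for the pattern of ALAS2 itself.

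Genes around the pathway were read by lists. Of 12 measured genes listed for the supply of glycine and succinyl-CoA, 2 rose and 7 fell with MEL, with a median of -0.18. Called were 75%, beside 36.7% of all genes. The list includes the glycine cleavage system, which breaks glycine down, so its counts do not measure supply. GCSH and DLD, subunits of the glycine cleavage system, fell by 0.42 and 0.37 (limma adjusted p = 1.07e-05 and 0.000157). SUCLG2, a subunit of succinyl-CoA ligase, fell by 0.42 (limma adjusted p = 1.81e-05). GLDC, the decarboxylase of glycine cleavage, rose by 0.29 from a level below the median (3.74 to 4.03, limma adjusted p = 0.00914), and it did not pass with the GAPDH difference as a covariate (limma adjusted p = 0.185).

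Of 14 measured genes for mitochondrial iron import and iron-sulfur clusters, 1 rose and 7 fell, with a median of -0.11 (57.1% called, background 36.7%). The named genes were IBA57, ISCA2 and BOLA3, which mature clusters, and FDX1, a ferredoxin, and they fell by 0.80, 0.25, 0.22 and 0.49 (limma adjusted p = 2.89e-06, 0.000387, 0.000676 and 1.22e-05). All 3 other probe sets of IBA57 differed in the opposite direction, and 1 of them was called. With the GAPDH difference as a covariate, 0 genes of this list rose and 5 fell, beside 1477 higher and 2153 lower over all genes.

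Of 10 measured carriers and binders of heme and porphyrins, 2 rose and 2 fell, with a median of -0.03 (40% called, background 36.7%). SLC48A1, a heme transporter of endosomes and lysosomes, rose by 0.57 from 8.08 ± 0.21 to 8.65 ± 0.18 (SD, n = 9, limma adjusted p = 1.40e-06), and all 3 of its probe sets were called higher. ABCB6, a porphyrin transporter, rose by 0.27 by its main probe set (limma adjusted p = 0.00115), and of its 2 probe sets only 1 rose. HEBP1, a heme-binding protein, fell by 0.59 from 7.53 ± 0.14 to 6.95 ± 0.18 (SD, n = 9, limma adjusted p = 1.74e-06). PGRMC2, a carrier of heme to the nucleus, fell by 0.16 (limma adjusted p = 0.0285), a call lost without both arrays that stood apart (limma adjusted p = 0.0884), with quantile normalization repeated (0.214) and with the GAPDH covariate (0.207).

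Of 7 measured genes for breakdown and sensing of heme, 4 rose and 1 fell, with a median of 0.17 (71.4% called, background 36.7%). BLVRA and BLVRB, which reduce biliverdin, rose by 0.22 and 0.18 by their main probe sets (limma adjusted p = 0.000965 and 0.00555). Of the 5 BLVRA probe sets 2 rose, and of the 3 that differed the opposite way 1 was called. HMOX2, the constitutive heme oxygenase, fell by 0.34 (limma adjusted p = 0.00101), but with the GAPDH covariate its difference was -0.18 and did not pass (limma adjusted p = 0.125). The inducible HMOX1 rose by 0.20 at a level below the median, from 3.87 to 4.07 (limma adjusted p = 0.0347). HMOX1 did not pass without both arrays that stood apart (limma adjusted p = 0.126), with quantile normalization repeated (0.115), with arrays centred on their medians (0.103) or with the GAPDH covariate (0.536). With that covariate 2 genes of the list rose and 0 fell, beside 1477 higher and 2153 lower over all genes.

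Of 14 measured genes that control ALAS synthesis and stability, 3 rose and 5 fell, with a median of -0.03 (57.1% called, background 36.7%). ZFPM1, the partner of GATA1 also called FOG1, rose by 0.77 (limma adjusted p = 7.02e-07), while LMO2, a bridging factor of the erythroid complex, fell by 0.42 (limma adjusted p = 0.000236). FBXL5, which marks an iron regulatory protein for degradation, fell by 0.39 (limma adjusted p = 3.74e-05). CLPX, the mitochondrial unfoldase that activates and turns over ALAS, fell by 0.34 (limma adjusted p = 0.000757).

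Of 5 measured globin genes and partners, 2 rose and 2 fell, with a median of -0.03 (80% called, background 36.7%). HBZ, the embryonic zeta chain, fell by 0.48 from 12.23 ± 0.16 to 11.75 ± 0.15 (SD, n = 9, limma adjusted p = 9.79e-07). HBD, the delta chain, rose by 0.48 (limma adjusted p = 3.28e-05). HBE1, the epsilon chain, rose by 0.22 by its main probe set (limma adjusted p = 0.00108), a call that did not hold with the GAPDH covariate (limma adjusted p = 0.0555). Of the 2 HBE1 probe sets only 1 rose. AHSP, the chaperone of alpha globin, fell by 0.14 (limma adjusted p = 0.0332), a call lost without both arrays that stood apart (limma adjusted p = 0.108), with quantile normalization repeated (0.365) and with the GAPDH covariate (0.444). When quantile normalization was repeated, the medians of the transport, ALAS control and globin lists lay above 0 (0.04, 0.04 and 0.04). No gene of these 6 lists passed between CALRins5 and CALRdel52 or CALRwt cells with MEL, or between untreated CALRins5 and CALRdel52 cells.

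**Figure D4:**
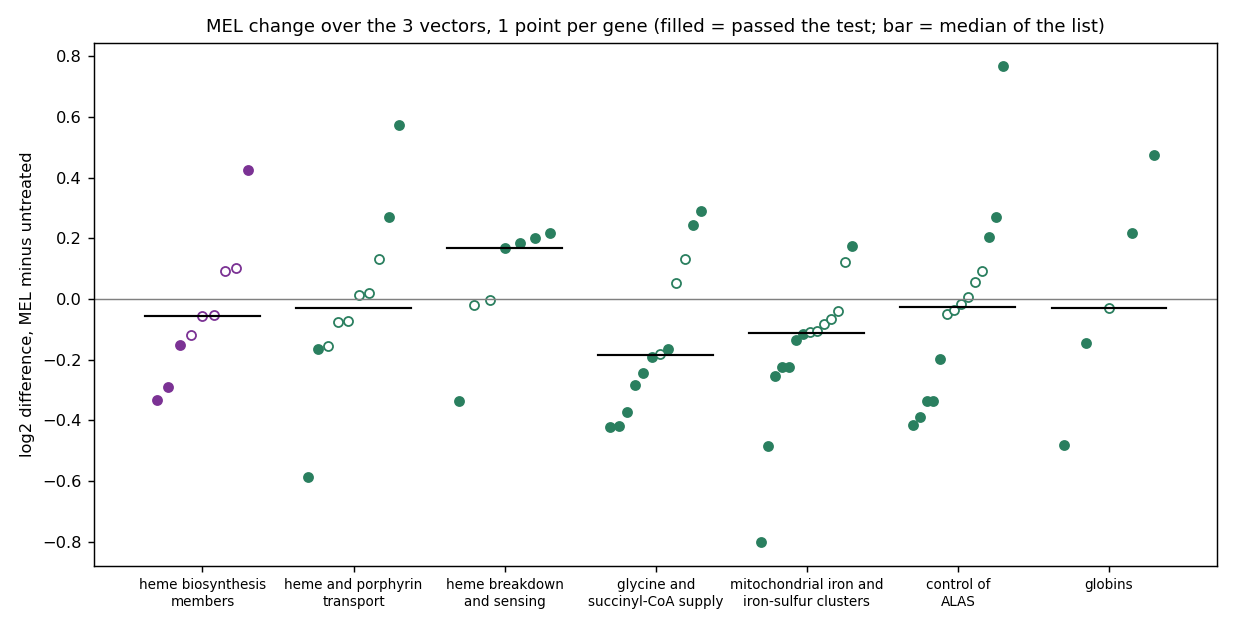
Log2 difference with MEL over the 3 vectors, 1 point per gene by its main probe set, for the heme biosynthesis members and 6 neighbouring lists; filled points passed the test and bars are list medians. The members run from -0.33 to 0.43. The list for glycine and succinyl-CoA supply, which includes glycine cleavage genes, has the lowest median of the lists, at -0.18.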

How the data were processed

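Values were the log2 expression values that the authors deposited for 18 arrays (HG-U133 Plus probe sets), made with RMA in Partek per the labels. The sources used here do not say which arrays shared a normalization. They were used as deposited, without a filter.

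Groups came from the labels. limma 3.58.1 (R 4.3.3; lmFit, then eBayes) gave each difference its test over all 54675 probe sets, with Benjamini-Hochberg adjustment and a threshold of 0.05. Untreated comparisons used 9 arrays in 3 groups and all others 18 arrays in 6 groups. Scripts were tested on simulated data. Sequences came from RefSeq promoters (250 bases before to 50 after a start). Figures used matplotlib 3.10.9.

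The members and gene lists were chosen with earlier results of these data known. All 9 members were named, and of each list up to 4 called genes by size of change. Alternatives were the replicate block, normalization, filters, probe set choice, tests, groups in the model, the GAPDH covariate and left-out arrays. Probe sets naming several genes or none (1801 and 11777) were tested but named no gene. The number of arrays limits the precision. P-values measure the spread between these arrays, which may be technical.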

Additional observations from a re-analysis of the deposited data

How the results depend on the processing

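Each result was recomputed under up to 12 other settings and with arrays left out. For MEL over the 3 vectors, 3 to 6 members were called under every alternative and 3 to 5 without single arrays or replicate numbers. CPOX and SLC25A38 kept direction and call in all of these, and ALAS2 in all but the exclusion of probe sets with _x_ or _s_ in their names (0.12), where its dim probe set stands in and ALAS1 has no value. Directions turned for ALAS1 (0.0252) and UROS (0.0255) when quantile normalization was repeated. They also turned for ALAD with the mean of all probe sets (-0.0689) and with the GAPDH covariate (-0.0146), and for FECH with the mean of all probe sets (0.0288). None passed in the settings that turned it, and the cause was not tested. Calls of PPOX, ALAD, UROS and FECH under other settings are given above with each gene. Centring arrays on their medians moved the median of all genes from 0.04 to -0.01 and the share of calls that were higher from 50.6% to 35.4%.

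For CALRwt cells, 1 member was called with repeated quantile normalization and 2 with only the compared groups in the model or the GAPDH covariate, and 1 to 4 when arrays were left out. For CALRdel52 cells, 5 were called with the mean of all probe sets and 1 with only the compared groups in the model, and 1 to 3 when arrays were left out. For CALRins5 cells, 1 was called with arrays centred, with only the compared groups in the model and without both arrays that stood apart, 4 with the mean of all probe sets and 0 with the GAPDH covariate, and 0 to 3 when arrays were left out. Under MEL, 0 members were called for CALRins5 against CALRwt without probe sets holding _x_ or _s_ and with only the MEL arrays in the model. The same held for CALRins5 against CALRdel52 in these settings and with the mean of all probe sets. In both comparisons 0 to 1 were called when arrays were left out. At an unadjusted p under 0.01 without moderation, 1 member was called for CALRins5 against CALRwt and 2 for CALRins5 against CALRdel52 untreated, and 2, 1 and 2 for mutated, CALRdel52 and CALRins5 against CALRwt with MEL. For CALRins5 against CALRdel52 untreated, 1 was called above the median level only and 2 with trend and robust options.

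The labels do not say whether equal replicate numbers mark a shared experiment. Of 45 same-numbered pairs 16 correlated over 0.1 (r -0.22 to 0.23), and 15 of 18 arrays correlated best with their own number, a hint from the data and not from the design. With the replicate number as a block, 1 member in place of 2 was called for MEL in CALRins5 cells (ALAS2, limma adjusted p = 0.0524), and no other call of a member changed.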
